A study of Mus musculus with 40 samples.

Results

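The tumour necrosis factor (TNF) superfamily was followed in mouse dorsal root ganglia, the clusters of sensory neuron cell bodies beside the spinal cord, over 10 days after spared nerve injury. Its members were taken by gene symbol from the platform's probe table: every symbol that begins with Tnfrsf, Tnfsf or Tnfaip, every Traf gene with a number, and Tnf, Lta, Ltb, Ltbr, Fas, Fasl, Cd40 and Eda2r. This gave 53 genes of the 16593 named genes on the array, carried by 86 probes. They are 15 ligand genes, 24 receptor genes, 6 Traf adaptor genes and 8 Tnfaip genes. The prefix Tnfaip stands for induction by TNF, and these genes do not all belong to the same protein family. The rule reads symbols and no measured value, although the family was picked with earlier results of these data known.

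All arrays came from adult male C57BL/6J mice, 9 to 10 weeks old. Spared nerve injury cut 2 of the sciatic nerve's branches, the tibial and the common peroneal, after tying them, and spared the sural branch. The injured groups had 3 arrays each at 8 h, 16 h and 1, 2, 3, 5, 6, 7 and 8 days and 2 arrays each at 4, 9 and 10 days, and 7 arrays came from naive mice without surgery. Injured arrays were also combined into an early phase (8 h to 1 day, 9 arrays), a middle phase (2 to 5 days, 11 arrays) and a late phase (6 to 10 days, 13 arrays). The ganglia were used whole, so fewer cells of a type and less RNA per cell cannot be told apart. Whether each array was made from 1 mouse or from pooled mice is not in the labels, so a p-value reflects only how these arrays vary, and part of that variation may be technical.

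TNF ligands are mostly trimeric membrane proteins, several of which can be shed, and they bind receptors whose cytoplasmic tails recruit either Traf adaptors or death domain proteins. From there the signal runs to NF-kappaB and stress kinases or to caspases. In sensory ganglia Tnf is best known as a cytokine that sensitizes nociceptors, and Tnfrsf12a, also called Fn14 and the receptor for the ligand Tnfsf12 (Tweak), is known as a receptor induced in axotomized neurons.

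Tnfrsf12a rose in all 3 phases. It was the 1 of 25 measured members that rose early, where 0.846% of all genes tested were called higher, 1 of 2 in the middle phase, where 5.72% were, and the 1 that rose late, where 5.76% were. It rose between 8 and 16 h and was still high at 10 days. Tnf itself never exceeded the detection level, the normalized log2 signal of 6.85 above which the deposited detection p-values of 3 arrays lie under 0.05. The proximal promoters of both genes are shown because one rose in every phase and the other, the ligand that gives the family its name, was never above the detection level. Each line gives the 250 bases before the annotated start, 5′ to 3′ on the gene's strand, from RefSeq on GRCm38.p6. Tnfrsf12a is at chr17:23677450-23677699 and Tnf at chr17:35202008-35202257, both on the minus strand. Capitals mark a loose kappa-B pattern, GGG and CC with any 5 bases between them.
Tnfrsf12a: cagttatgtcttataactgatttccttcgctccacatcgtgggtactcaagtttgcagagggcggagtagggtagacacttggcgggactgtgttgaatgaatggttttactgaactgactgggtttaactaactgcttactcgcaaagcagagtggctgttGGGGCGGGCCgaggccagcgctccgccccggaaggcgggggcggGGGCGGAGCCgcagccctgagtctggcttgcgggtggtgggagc
Tnf: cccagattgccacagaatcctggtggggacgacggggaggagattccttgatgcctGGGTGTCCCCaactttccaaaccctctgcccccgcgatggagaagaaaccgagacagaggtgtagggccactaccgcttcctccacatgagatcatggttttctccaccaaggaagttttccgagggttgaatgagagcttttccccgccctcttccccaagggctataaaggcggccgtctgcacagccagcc

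Tnfrsf12a held 2 kappa-B matches, at bases -88 to -79 and -44 to -35 counted from the start, and Tnf held 1, at -194 to -185. Both matches of Tnfrsf12a overlap the letters GGGCGG, of which its window held 5 and that of Tnf 1. On either strand the kappa-B letters occurred in 48.7% of the promoters of all 27025 genes and in 30 of the 44 members with a promoter sequence, and GGGCGG in 35.4% and in 24 of 44. The AP-1 letters TGANTCA were in 7.82% of all promoters and in 7 of 44 members (Fas, Tnfaip3, Tnfaip6, Tnfrsf8, Tnfrsf9, Tnfsf13b and Tnfsf14), but in neither printed window. The CRE letters TGACGTCA were in 1.77% of all promoters and in 0 of 44 members. A match here describes letters and is not evidence of binding.

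Of the 53 members, 25 (47.2%) were measured, which here means that 3 or more arrays had a probe above the detection level. Of all named genes, 10519 (63.4%) were. Another 23 members were above the level on no array and 5 on 1 or 2 arrays. The measured share was 3 of 15 ligands, 13 of 24 receptors, 4 of 6 adaptors and 5 of 8 Tnfaip genes. A gene under the level has only an upper bound on its signal, and a low call rate cannot separate a silent gene from a weak probe. The median raw signal of the arrays lay between 130.2 and 244.5 intensity units, and precision is limited by how many arrays each group has.

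**Figure D1:**
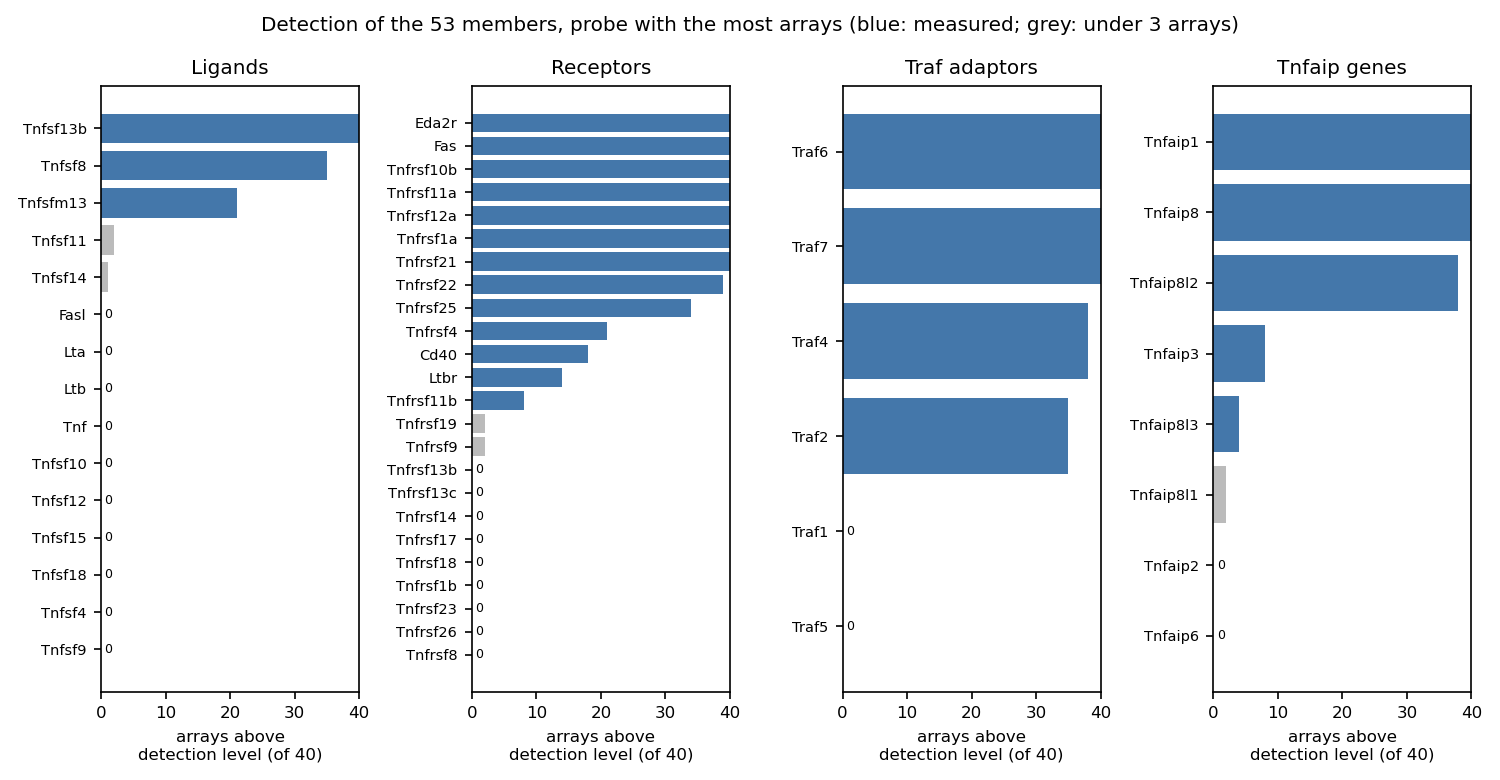
Number of the 40 arrays on which each member's best probe exceeded the detection level, by role (horizontal axis: arrays, 0 to 40). Blue bars are the 25 measured members and grey bars the 5 seen on 1 or 2 arrays. A 0 marks the 23 never above the level, among them Tnf and Tnfrsf1b.

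Among the ligands, Tnf had a log2 signal of 5.98 to 6.32 early (median 6.15), 5.94 to 6.37 in the middle phase (median 6.11) and 5.91 to 6.35 late (median 6.10), against 5.93 to 6.39 in naive ganglia (median 6.11). Its injured and naive arrays covered the same range, all of it below the detection level. Tnfsf12, the ligand of Tnfrsf12a, stayed between 5.87 and 6.31 on the injured arrays and between 6.13 and 6.36 on the naive arrays, also below the level. The other ligands that were never above it were Fasl, Lta and Ltb (lymphotoxins alpha and beta), Tnfsf10 (Trail), Tnfsf15, Tnfsf18, Tnfsf4 (Ox40 ligand) and Tnfsf9. Tnfsf11 (Rank ligand) exceeded it on 2 arrays and Tnfsf14 (Light) on 1.

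The 3 measured ligands are Tnfsf13b (Baff, a B cell survival factor), above the level on 40 arrays, Tnfsf8 (Cd30 ligand) on 35, and Tnfsfm13, a read-through transcript of the Tnfsf12 and Tnfsf13 genes, on 21. None of them passed the test in any phase. For Tnfsf13b the log2 difference from naive was -0.18 ± 0.09 early (standard error; adjusted p = 0.444, limma with Benjamini-Hochberg adjustment over all genes), and its second probe gave -0.22. Tnfsfm13 differed by 0.18 ± 0.09 in the middle phase (adjusted p = 0.223) and Tnfsf8 by 0.10 ± 0.12 (adjusted p = 0.636).

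Tnfrsf12a was above the detection level on all 40 arrays. On the naive arrays its log2 signal was 7.76 at the lowest, 8.12 at the median and 8.26 at the highest. The arrays at 8 h had 7.73, 7.95 and 7.85, within or just under the naive range. At 16 h the values were 9.41, 9.21 and 8.92, and at 1 day 9.52, 9.81 and 9.69. From 16 h on, every injured array lay above every naive array.

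Through the middle phase Tnfrsf12a had 9.05, 9.75 and 10.10 at 2 days, 9.60, 9.20 and 9.64 at 3 days, 9.14 and 9.53 at 4 days, and 9.31, 9.04 and 9.54 at 5 days. The late arrays had 8.94, 9.26 and 9.15 at 6 days, 9.34, 9.77 and 9.77 at 7 days, and 9.51, 9.52 and 9.12 at 8 days. At 9 days the values were 9.52 and 9.12, and at 10 days 9.61 and 9.37. The array at 2 days with 10.10 was the highest of all 40, and the 3 arrays at 6 days lay below every array at 1, 7 and 10 days.

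**Figure D2:**
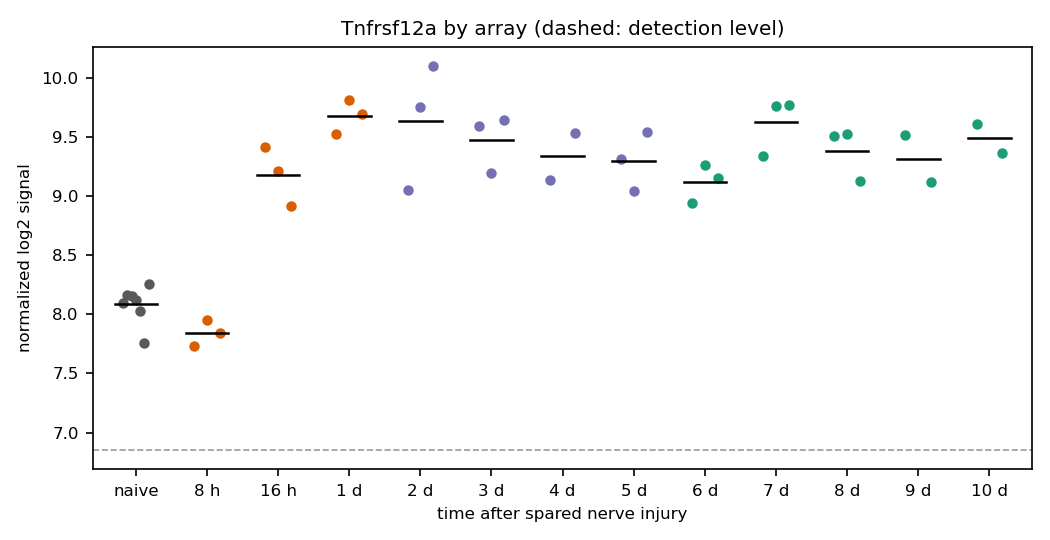
Normalized log2 signal of Tnfrsf12a on each array (points) with group means (bars), from naive through 8 h to 10 days. The dashed line is the detection level of 6.85. The 8 h arrays (7.73 to 7.95) lie at the naive level (7.76 to 8.26), and all later arrays lie between 8.92 and 10.10.

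Tnfrsf12a averaged 9.44 in the middle phase against 8.08 in naive ganglia, a rise of 1.35 ± 0.12 log2 (2.55-fold, adjusted p = 6.89e-11). Late it averaged 9.39, a rise of 1.30 ± 0.11 (2.47-fold, adjusted p = 8.6e-11), and early 8.90, a rise of 0.82 ± 0.12 (1.76-fold, adjusted p = 5.04e-05). The early mean combines unlike times: without the 8 h arrays the early rise was 1.34 (adjusted p = 9.24e-09). Taken singly, 11 of the 12 times passed the test. The difference at 8 h was -0.24 ± 0.16 (adjusted p = 0.94), and those at the later times lay between 1.03 ± 0.16 at 6 days and 1.59 ± 0.16 at 1 day.

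The step of Tnfrsf12a between 16 h and 8 h was itself tested. The 16 h arrays were higher by 1.34 ± 0.19 (adjusted p = 0.000108, n = 3 against 3 in limma's fit of all 40 arrays), a step that 0.39% of all genes passed. Fitted on the arrays of these 2 times alone, the same difference did not pass (adjusted p = 0.0641), and with neqc, another background correction, it was 0.87 (adjusted p = 0.00411). At 1 day the difference from 16 h was 0.50 ± 0.19 (adjusted p = 0.541), where 0.057% of genes passed. The injury-induced transcription factor gene Atf3, by comparison, had already risen at 8 h, by 1.44 ± 0.16 (adjusted p = 8.49e-07). That call of Atf3 ended with neqc background correction (0.75, adjusted p = 0.0597). Late minus early, with the 8 h arrays in the early mean, Tnfrsf12a was higher by 0.49 ± 0.10 (adjusted p = 0.00153). Late minus middle it differed by -0.05 ± 0.10 (adjusted p = 0.869, 95% interval -0.25 to 0.15).

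Markers of several cell types moved over the same days. Of 7 measured injured-neuron markers (of 8 listed, Sox11 having no probe under its symbol), 4 rose early, 7 in the middle phase and 7 late. Their summed signal was 6183 to 16673 early, 22123 to 44101 in the middle phase and 25366 to 40032 late, against 5074 to 8407 in naive ganglia. At 8 h, when Tnfrsf12a was at the naive level, this sum was 6183 to 8537. Of 13 measured macrophage markers (of 16, without Csf1r, Cd68 and Itgam), 0 rose early, 10 in the middle phase and 12 late, with sums of 4225 to 5568 early, 6079 to 8862 in the middle phase and 7422 to 12061 late, against 4052 to 5074 in naive ganglia. Of 6 fibroblast markers, all measured, 0 rose early, 1 in the middle phase (Lum) and 2 late (Lum and Col1a1), and their sums were 12943 to 23209 early, 12936 to 20732 in the middle phase and 16427 to 22507 late, against 14374 to 18058 in naive ganglia. Late, 1 of 5 measured Schwann cell markers also rose (Ncmap), and of 11 measured sensory neuron markers 1 fell in the middle phase (Nefm) and 1 late (Isl1). No skeletal muscle marker passed in any phase, but the sum of the 7 varied widely between arrays, from 643 to 11809 early, 693 to 7842 in the middle phase and 645 to 42791 late, against 651 to 5494 in naive ganglia. At 8 h the macrophage sum was 4824 to 5048. The sum of 10 measured neutrophil and mast cell markers was then 14548 to 25617, against 4822 to 13927 in naive ganglia. That of the 5 Schwann cell markers was 43654 to 50327, against 34116 to 43310. Both lay above every naive array, though no marker of either list passed early. The 8 h sums of the other cell type lists overlapped the naive range. The part of these cell types in the rise of Tnfrsf12a was not tested.

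Among all measured members, Tnfrsf12a was the 1 of 25 that passed the F-test over the 12 times (adjusted p = 2.57e-10), where 7.52% of all genes tested passed. It supplied all 11 calls among the members' single times, a comparison in which 3.48% of all gene and time pairs were called. No member fell in any phase, where 0.276% of genes fell early, 5.21% in the middle phase and 5.11% late. Late minus early, 1 member was called against 7.08% of genes.

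**Figure D3:**
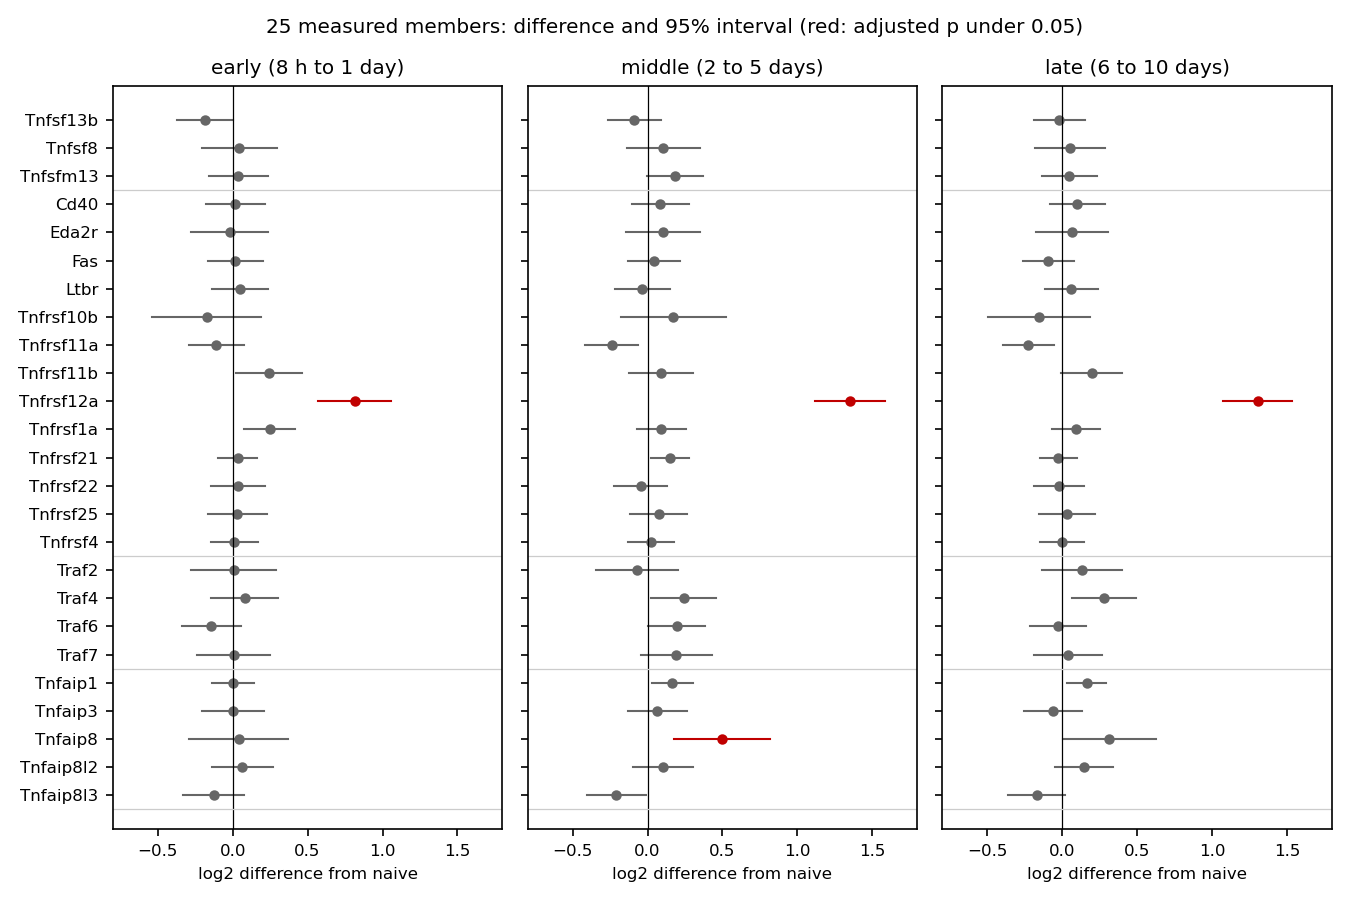
Log2 difference from naive (points) with 95% intervals for the 25 measured members in the early, middle and late phases, ordered by role. Red marks an adjusted p under 0.05: Tnfrsf12a in all 3 phases (0.82, 1.35 and 1.30) and Tnfaip8 in the middle phase (0.50).

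In measured signal the other members differed little from naive. The median difference of the 25 members was 0.02 early, 0.09 in the middle phase and 0.05 late, against -0.01, -0.01 and -0.02 over all genes tested. Without adjustment, 3 members early, 8 in the middle phase and 5 late had p under 0.05, that is among 25 members, while 11.3%, 23.8% and 21.8% of all genes did. The 95% interval of the difference lay within 0.5 log2 of naive for 23 of the 24 members not called early, 22 of 23 in the middle phase and 23 of 24 late. The exceptions were Tnfrsf10b, with an interval that reached -0.54 early and 0.52 in the middle phase, and Tnfaip8, which reached 0.63 late. Some of these members were seldom above the detection level, such as Tnfaip8l3 (4 arrays), Tnfaip3 and Tnfrsf11b (8 each), Ltbr (14) and Cd40 (18). For such genes a narrow interval does not show that expression was unchanged, because much of their signal lay under that level.

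Tnfrsf1a, the TNF receptor that carries a death domain, was measured by 3 probes. On the probe that represents it the log2 signal was 7.43, 7.26 and 7.47 at 8 h, 7.64, 7.73 and 8.01 at 16 h, and 7.68, 7.64 and 7.85 at 1 day. The naive arrays had 7.31 at the lowest, 7.37 at the median and 7.51 at the highest, so all arrays at 16 h and 1 day lay above all naive arrays while those at 8 h did not.

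Over the early phase Tnfrsf1a differed from naive by 0.25 ± 0.08 and did not pass (adjusted p = 0.187). Its other probes gave 0.30 and 0.37. Taken singly no probe passed (limma, adjusted p over all probes between 0.145 and 0.363). The call depends on whether the probes are averaged and on the 8 h arrays. With neqc the early difference was 0.105 (adjusted p = 0.144). With the mean of its probes it was 0.31 (adjusted p = 0.0451), and without 8 h it was 0.37 (adjusted p = 0.0202), an alternative added after the values were seen. At 16 h alone the difference was 0.41 ± 0.11 (adjusted p = 0.0917), and 0.52 (adjusted p = 0.008) with the mean of the probes. Tnfrsf1a ranged from 7.23 to 7.77 in the middle phase (median 7.45) and from 7.15 to 7.83 late (median 7.44), overlapping the naive arrays, and the difference in these phases was 0.09 ± 0.08 in each (adjusted p = 0.524 and 0.582). Late minus early it was -0.16 ± 0.07 (adjusted p = 0.25).

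Tnfrsf1b, the TNF receptor without a death domain, was never above the detection level. One of its 2 probes ranged from 6.03 to 6.55 on the injured arrays (median 6.25) and from 5.97 to 6.26 on the naive arrays (median 6.10). The other ranged from 6.01 to 6.52 on the injured arrays (median 6.26) and from 6.15 to 6.45 on the naive arrays (median 6.23), so injured and naive arrays overlapped on both. The first probe differed from naive by 0.14 early, 0.14 in the middle phase and 0.12 late. None of these passed (limma, adjusted p over all probes 0.596, 0.204 and 0.342). The other probe, which stands for the gene without the filter on dim probes, gave -0.003, -0.03 and -0.04.

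Fas, a death receptor, had a log2 signal of 7.53 to 7.93 early (median 7.65), 7.50 to 7.96 in the middle phase (median 7.71) and 7.31 to 7.86 late (median 7.59), against 7.44 to 8.07 in naive ganglia (median 7.60). These ranges overlapped almost fully. The differences were 0.02 ± 0.09, 0.04 ± 0.09 and -0.09 ± 0.08, with adjusted p of 0.964, 0.799 and 0.605.

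Tnfrsf11a (Rank), the receptor of Tnfsf11, had the lowest difference from naive of the measured receptors in the middle and late phases. It ranged from 7.26 to 7.68 in the middle phase and from 7.25 to 7.82 late, against 7.46 to 7.85 in naive ganglia. Of the middle-phase arrays 6 of 11 and of the late arrays 7 of 13 lay below every naive array. The differences of -0.24 ± 0.09 (adjusted p = 0.0721) and -0.23 ± 0.08 (adjusted p = 0.0811) did not pass. Tnfrsf11b (osteoprotegerin), the soluble decoy for Tnfsf11, differed by 0.24 ± 0.11 early (adjusted p = 0.375), and exceeded the detection level on 8 arrays.

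Tnfrsf21, a death-domain receptor also called death receptor 6, had a log2 signal of 11.57 to 11.87 late and 11.68 to 12.22 in the middle phase. Late minus middle its difference was -0.18 ± 0.05 (adjusted p = 0.121), and its other probe did not show it in the phases against naive (0.00 in the middle phase and -0.06 late). Tnfrsf10b, a Trail receptor, differed by -0.33 ± 0.15 late minus middle (adjusted p = 0.324). With limma 0 members passed late minus middle, where 0.646% of genes did. Without adjustment 3 members had p under 0.05, against 13.2% of genes, these being Tnfrsf21, Tnfrsf10b and the adaptor gene Traf6.

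The remaining measured receptors were Cd40, Eda2r (a receptor of ectodysplasin), Ltbr (the lymphotoxin beta receptor), Tnfrsf22 (a decoy Trail receptor of the mouse), Tnfrsf25 (death receptor 3) and Tnfrsf4 (Ox40). Their differences in the 3 phases lay between -0.05 and 0.10, and none passed. Never above the level were Tnfrsf13b, Tnfrsf13c and Tnfrsf17, the receptors of the Baff system, and Tnfrsf14, Tnfrsf18, Tnfrsf23, Tnfrsf26 and Tnfrsf8. Tnfrsf19 (Troy) and Tnfrsf9 exceeded it on 2 arrays each. Of the lymphocyte markers, 2 of 10 T cell genes and 3 of 6 B cell genes were measured, and none of these passed in any phase.

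Among the adaptors, Traf2, Traf4, Traf6 and Traf7 were measured and Traf1 and Traf5 were never above the level. Traf6, which links receptors to NF-kappaB and stress kinases, ranged from 8.57 to 9.27 in the middle phase and from 8.41 to 8.98 late, against 8.55 to 9.14 in naive ganglia, and the ranges overlapped. It differed by 0.20 ± 0.09 in the middle phase (adjusted p = 0.194) and by -0.23 ± 0.08 late minus middle (adjusted p = 0.193). The largest single-time value of Traf6 was 0.44 ± 0.15 at 4 days (adjusted p = 0.148). Its second probe gave 0.27 in the middle phase and the remaining probe -0.05.

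Traf4 differed from naive by 0.24 ± 0.11 in the middle phase (adjusted p = 0.152) and by 0.28 ± 0.10 late (adjusted p = 0.084). All 13 late arrays lay above the naive mean of Traf4 and 6 of them above every naive array, but the threshold was not passed. Late it passed without naive replicate 3 (0.33, adjusted p = 0.0477). The other kept probes of Traf4 gave 0.23 and 0.04 late. Traf2 and Traf7 differed by -0.07 to 0.19 over the phases.

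Of the Tnfaip genes, Tnfaip8, a regulator of cell death and lipid signalling, rose in the middle phase. Its log2 signal was 7.94, 7.82 and 7.78 at 2 days, 8.71, 7.85 and 7.63 at 3 days, 8.24 and 8.45 at 4 days, and 7.65, 8.52 and 8.29 at 5 days. The naive arrays had 7.36 at the lowest, 7.55 at the median and 7.79 at the highest. All 11 middle-phase arrays lay above the naive mean and 8 above every naive array, with a wide spread among arrays of 1 time.

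The mean of Tnfaip8 was 8.10 in the middle phase against 7.60 in naive ganglia, a rise of 0.50 ± 0.16 (1.41-fold, adjusted p = 0.036). Late it ranged from 7.66 to 8.43 (median 7.81) and differed by 0.31 ± 0.15 (adjusted p = 0.224), and early it ranged from 7.09 to 8.26 (median 7.58) and differed by 0.04 ± 0.16. No single time passed (lowest adjusted p = 0.147), nor did the F-test (adjusted p = 0.479). The call was lost without any 1 of 9 arrays, namely naive replicates 1, 3, 6 and 7, replicate 1 at 2 days, replicate 1 at 3 days, replicate 2 at 4 days and replicates 2 and 3 at 5 days (adjusted p between 0.0533 and 0.0908). With neqc background correction the rise was 0.26 (adjusted p = 0.0346). The markers of injured neurons, macrophages and fibroblasts given above moved over the same days, and their part was not tested here either.

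**Figure D4:**
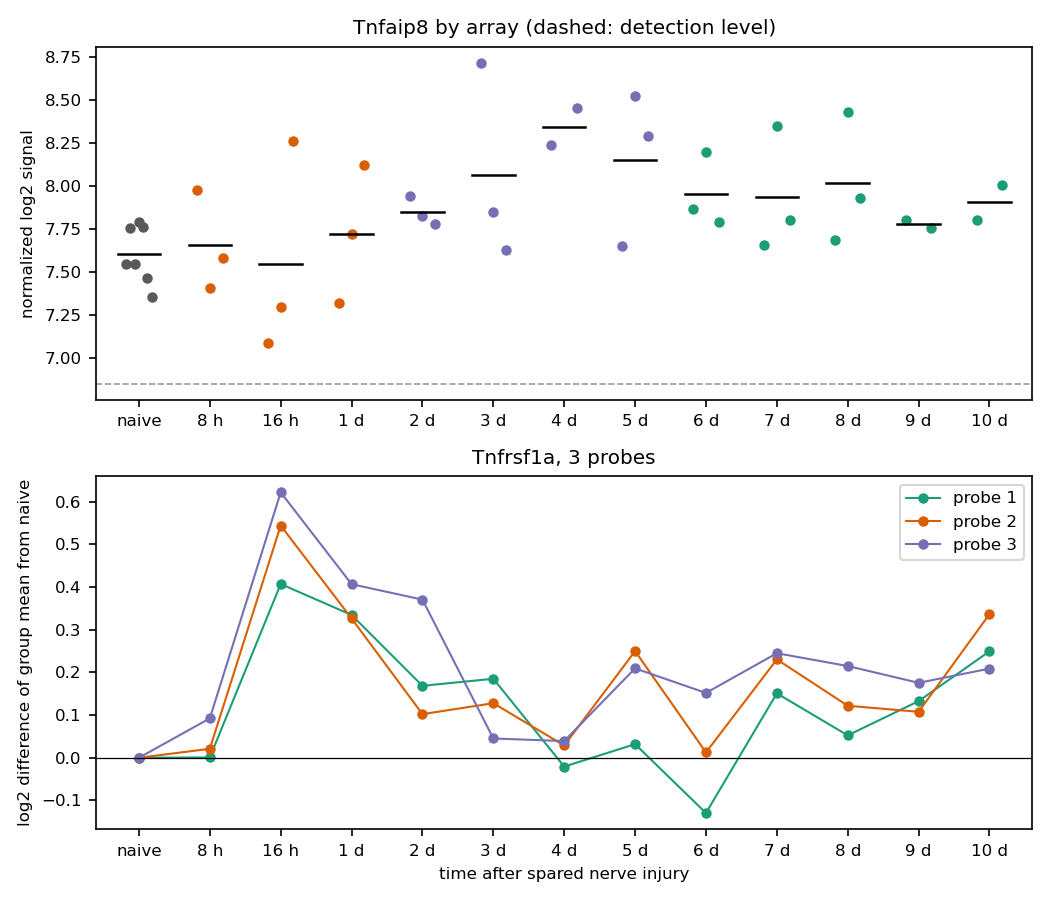
Upper panel: normalized log2 signal of Tnfaip8 on each array (points) with group means (bars), from naive to 10 days, with the detection level dashed; arrays at 3 days span 7.63 to 8.71. Lower panel: group mean of each of the 3 Tnfrsf1a probes minus its naive mean (log2), all near 0 at 8 h and highest at 16 h.

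Tnfaip3 (A20), the ubiquitin-editing inhibitor of NF-kappaB and a standard target of TNF, was above the detection level on 8 arrays. Its log2 signal ranged from 6.37 to 6.97 early (median 6.55), from 6.25 to 7.04 in the middle phase (median 6.75) and from 6.27 to 6.87 late (median 6.58), against 6.36 to 7.07 in naive ganglia (median 6.59). The groups overlapped, and the differences of 0.00 ± 0.10, 0.07 ± 0.10 and -0.06 ± 0.09 did not pass (adjusted p = 0.999, 0.723 and 0.804).

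Tnfaip1, an adaptor of a ubiquitin ligase, differed by 0.17 ± 0.07 in the middle phase (adjusted p = 0.112) and by 0.16 ± 0.06 late (adjusted p = 0.111), with 9 of 11 and 9 of 13 arrays above every naive array. Tnfaip8l3 differed by -0.21 ± 0.10 in the middle phase (adjusted p = 0.175), and exceeded the level on 4 arrays. Tnfaip8l2, a regulator of immune cell activation, differed by 0.14 ± 0.09 late (adjusted p = 0.421). Tnfaip2 and Tnfaip6 were never above the level and Tnfaip8l1 on 2 arrays.

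The genes downstream of the receptors are read against the same shares of all genes. Of 8 measured genes of the NF-kappaB transcription list (11 listed), 1 rose early (0.846% of all genes did), 2 in the middle phase (5.72%) and 1 late (5.76%), none fell against naive, and the list's median difference was 0.06, 0.02 and 0.13. Bcl3, a nuclear partner of NF-kappaB, rose by 0.56 ± 0.10 early (adjusted p = 0.0019) and by 0.53 ± 0.10 in the middle phase (adjusted p = 0.000299). It was lower late minus early, by -0.36 ± 0.09 (adjusted p = 0.00749). The early call of Bcl3 ended with the replicate number as a block (adjusted p = 0.107). Nfkbiz, a related nuclear inhibitor protein gene, rose by 0.47 ± 0.09 in the middle phase (adjusted p = 0.000412) and by 0.59 ± 0.09 late (adjusted p = 8.69e-06). The early difference of Nfkbiz, 0.36 ± 0.09, was close to the threshold but did not pass (adjusted p = 0.0514). Its late minus early difference of 0.23 ± 0.08 did not pass either (adjusted p = 0.0969). Nfkbia, the feedback inhibitor that NF-kappaB induces, differed by 0.02 ± 0.14, -0.28 ± 0.13 and 0.02 ± 0.13 and did not pass. Nfkbib was lower late minus middle (-0.27 ± 0.07, adjusted p = 0.0484), a call lost without any 1 of 30 of the 40 arrays (adjusted p up to 0.177), without the filter on dim probes (0.0811), with the range of the sample number as a block (0.0613) and on only the groups compared (0.127). Nfkb1, Nfkb2 and Rel were not measured.

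Of 16 measured kinase and adaptor genes between receptor and NF-kappaB (23 listed), 0 passed early, 1 fell in the middle phase (5.21% of all genes did) and 2 fell late (5.11%), and the list's median was -0.02, -0.05 and -0.05. Cyld, a deubiquitinase that restrains NF-kappaB, fell by 0.21 ± 0.06 in the middle phase (adjusted p = 0.0178) and by 0.28 ± 0.06 late (adjusted p = 0.000593). Both calls ended with the replicate number as a block (adjusted p = 0.221 and 0.0708). Tab3, a partner of the kinase encoded by Map3k7, had a late difference of -0.20 ± 0.06 (adjusted p = 0.0361), a call lost without any 1 of 9 arrays, namely naive replicates 2, 3, 4 and 6, 6-day replicate 2, 7-day replicate 1, 8-day replicate 1, 9-day replicate 2 and 10-day replicate 1 (adjusted p up to 0.117). The call of Tab3 also ended without the filter on dim probes (adjusted p = 0.0678), with robust variances and array weights (0.0579) and on only the groups compared (0.0701).

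Of 10 measured death signalling genes (14 listed), 0 passed early, 1 rose in the middle phase (5.72% of all genes did) and 1 late (5.76%), with list medians of -0.08, -0.02 and 0.01. The gene was Casp6, a caspase known for axon degeneration, at 0.43 ± 0.10 in the middle phase (adjusted p = 0.00181) and 0.39 ± 0.09 late (adjusted p = 0.00361). All 6 genes of ligand shedding and processing were measured and 0 passed in any phase against naive, with list medians of -0.06, 0.11 and 0.05. Late minus early, where 7.08% of all genes passed in either direction, 2 of the 6 were higher, Adam17, the TNF-releasing protease gene, by 0.30 ± 0.06 (adjusted p = 0.000594), and Timp3, an inhibitor of that protease, by 0.27 ± 0.07 (adjusted p = 0.0113). With the mean of its probes the call of Timp3 ended (adjusted p = 0.179). Of 8 family members with other symbols, Ngfr, the neurotrophin receptor p75, and Relt were measured and neither passed. Ngfr differed by 0.06 ± 0.07 early, 0.01 ± 0.06 in the middle phase and -0.04 ± 0.06 late.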

How the data were processed

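Ganglion RNA was labelled as biotin cRNA for Illumina bead arrays, per the labels. Per the file headers, the deposited table of 25697 probes pairs every array's signal, an intensity, with a p-value for detection. The authors also deposited a table of log2 values; these differ by at most 0.038 from log2 of the signals after quantile normalization, and the software behind either table is not given in the sources used here. On 37 of 40 arrays the detection p-values do not track that array's signals, so the detection level was averaged over the other 3 (6.82 to 6.88). The neqc alternative drew its background from these p-values on all 40 arrays, so its values are an uncertain check. One header is at odds with the labels: replicate 2 at 10 days has a detection column that says 216 h, although its signal column says 240 h, and the label was followed.

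The signals were corrected by normexp with an offset of 50, then quantile-normalized and log2-transformed. A probe was kept if 3 or more arrays exceeded the detection level (15462 probes), and the kept probe with the highest average stands for its gene. Symbols came from the platform's probe table (23978 probes with 1 symbol, 1719 with none). The 10519 genes were fitted jointly in limma 3.58.1 (R 4.3.3), all 40 arrays sharing a variance trend, with Benjamini-Hochberg adjustment within each comparison and a threshold of 0.05. The script was tested on simulated data.

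The members and lists were chosen with earlier results of these data known. Values by array, or the lowest, median and highest of a group, are given for members past the threshold and for Tnf, Tnfrsf1a, Tnfrsf1b, Fas, Tnfrsf12a and Tnfaip3. Other members are given by counts and ranges, and those of them with values were picked after these were seen. Pathway genes are named when past the threshold; Nfkbia and Ngfr were added. Marker sums add the normalized signals of a list's measured genes. Listed genes that were not measured include those without a probe under their symbol. Alternatives were neqc, the authors' log2 table, no filter on dim probes, the mean of a gene's probes, robust variances with array weights, only the groups compared, the replicate number or the range of the sample number as a block, and each array left out. Chosen after seeing the data were the early phase without 8 h, each time minus the time before it, and each probe on its own. Promoter sequences came from RefSeq (GRCm38.p6).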

Additional observations from a re-analysis of the deposited data

Results flagged for a closer look

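For Tnfrsf12a the size of the response differed between times, by a direct test of the difference. Late minus early the log2 difference was 0.487 (adjusted p = 0.00153, limma). All 13 late arrays lay above the early mean, but 0 lay above every early array. The step from 8 h to 16 h was 1.34 (adjusted p = 0.000108), with all 16 h arrays above all 8 h arrays. Both comparisons include the 3 arrays at 8 h, which lay at the naive level. Without them the early rise from naive was 1.34, against 1.30 late. Over the 25 measured members, 0 naive groups held an array far from the other 6 by Dixon's test, which chance alone flags in about 1 of 20 groups.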

How the results depend on the processing

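Tnfrsf12a kept its direction and its call in the early, middle and late phases and late minus early under all 8 planned settings and with each of the 40 arrays left out. Leaving arrays out gave 0.76 to 0.86 early, 1.29 to 1.43 in the middle phase, 1.25 to 1.34 late and 0.44 to 0.53 late minus early, and neqc gave the smallest values (0.59 early and 0.96 in the middle phase). Robust variances and array weights, changed together, called 7 members in the F-test in place of 1, 26 member and time pairs in place of 11, 7 members in place of 2 in the middle phase, 3 in place of 1 late and 1 in place of 0 late minus middle (Traf6), while the F-test over all genes gave 4553 in place of 791; the cause was not tested. The mean of a gene's probes and the early phase without 8 h each called 2 members early in place of 1. With the range of the sample number as a block 2 members were called late, the second being Tnfrsf11a. With 1 array left out the counts were 1 to 2 in the F-test, 11 to 14 pairs, 1 to 1 early, 1 to 4 in the middle phase, 1 to 2 late, 1 to 2 late minus early and 0 to 1 late minus middle. The F-test called Traf6 as well without 3-day replicate 1, as did late minus middle. The 4 in the middle phase came without naive replicate 4 (Tnfaip8l3 and Tnfrsf11a added), Tnfrsf11a was called late without naive replicate 4, 7-day replicate 1 or 8-day replicate 2, and Tnfaip1 was called late minus early without 5-day replicate 2 or 8-day replicate 2. The step of Tnfrsf12a from 8 h to 16 h was 1.22 to 1.47 with 1 array left out (adjusted p up to 0.00348). After subtraction of group means, same-numbered arrays had median correlations of 0.03, -0.02 and -0.05 for replicates 1, 2 and 3. The median for differently numbered arrays of different groups was 0.01. The lowest correlations were -0.55, -0.70 and -0.51, against -0.71 for differently numbered arrays. These values do not settle whether replicate numbers pair the arrays. With the replicate block 1 member was called in the middle phase in place of 2, Tnfaip8 being lost (0.49, adjusted p = 0.211), and the calls of Bcl3 early (adjusted p = 0.107) and Cyld in the middle phase (0.221) and late (0.0708) ended, as did those of Tab3 and Nfkbib. Replicates 4 to 7 exist only among the naive arrays, so this block set the injured arrays against naive replicates 1 to 3 alone. The block gave Tnfrsf25 -0.22, -0.17 and -0.21 in the 3 phases, not called, against values near 0 without it. Without the filter on dim probes the 28 unmeasured members differed from naive by -0.17 to 0.15 in the phases and none passed (lowest adjusted p = 0.106). A fit of only the groups compared has no F-test. Signal near the detection level limits what can be seen of those 28 genes and of the measured members above it on few arrays.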
